A study of Homo sapiens with 17 samples.

Results

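Promoter to promoter contacts are pairs of HindIII fragments, both captured as promoters, that lie on the same chromosome with their midpoints no more than 1 Mb apart. They were taken from the significant promoter capture Hi-C (PCHi-C) interactions of naive and primed human pluripotent stem cells (PSCs), as the interactions whose fragments both carried a bait mark in the deposited lists. This gave 14163 pairs out of 128955 interactions, and the pairs joined 11038 of the 15982 promoter fragments with a bait mark in the lists. Captured promoters below means these 15982 fragments. Promoters that were targeted by the capture but had no listed interaction are not among them. A pair was called naive-only, primed-only or shared according to whether it stood in the naive list, in the primed list or in both.

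All cells came from H9 NK2, an established line of human embryonic stem cells, and were grown in 5% O2. Naive PSCs were kept on Matrigel in t2iL+PKCi medium, which contains PD0325901, CHIR99021, LIF and the protein kinase C inhibitor Go6983. Primed PSCs were kept on Vitronectin in TeSR-E8 medium. Each cell type had 2 PCHi-C replicates, which the authors combined into 1 list, and 1 Hi-C library. H3K4me1, histone H3 carrying a single methyl group on lysine 4, was mapped with CUT&RUN, in 2 libraries of naive and 3 of primed PSCs. Both cell types are states of 1 line, so other lines were not covered. Medium, inhibitors and coating changed together with state and cannot be told apart from it. The study noted a chromosomal copy number change carried by the cells of both states.

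Naive PSCs resemble the epiblast before implantation and primed PSCs the epiblast after it. Promoters can touch one another in the nucleus when active genes gather around the transcription machinery, when CTCF and cohesin hold loops between them, or when Polycomb complexes draw together silent developmental genes. H3K4me1 is best known from enhancers, but it also flanks the starts of active and poised genes, where the start itself usually carries higher methylation states of the same lysine. The mark at both ends of a pair therefore describes the chromatin around the promoters that touch.

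The 6 promoters below belong to a naive-only, a shared and a primed-only pair that recur in the results. They show how unlike the sequences at the ends of a pair can be. Each is the stretch of 250 bases before a RefSeq start of the gene inside the paired fragment, on GRCh38.p14. Where a gene had several such starts, the first listed was taken, so other starts may differ. Sequences are written 5′ to 3′ on the gene's own strand. CUL4B encodes the scaffold of a ubiquitin ligase (chrX:120575533-120575782, minus strand), and its naive-only partner C1GALT1C1 encodes a chaperone needed for O-glycosylation (chrX:120630055-120630304, minus strand). TSPAN16 encodes a tetraspanin (chr19:11295910-11296159, plus strand), and its shared partner SWSAP1 encodes a protein of homologous recombination (chr19:11374416-11374665, plus strand). PAX6 is the transcription factor of eye and forebrain (chr11:31812721-31812970, minus strand), and its primed-only partner WT1 is the transcription factor of kidney and gonad (chr11:32435540-32435789, minus strand). Capitals mark GC boxes (GGGCGG on either strand) and CCAAT boxes (CCAAT on either strand).
CUL4B: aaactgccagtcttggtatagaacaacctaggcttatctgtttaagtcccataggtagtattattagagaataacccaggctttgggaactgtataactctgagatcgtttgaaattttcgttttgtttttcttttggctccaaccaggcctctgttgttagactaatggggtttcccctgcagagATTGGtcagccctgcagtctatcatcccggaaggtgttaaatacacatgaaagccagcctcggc
C1GALT1C1: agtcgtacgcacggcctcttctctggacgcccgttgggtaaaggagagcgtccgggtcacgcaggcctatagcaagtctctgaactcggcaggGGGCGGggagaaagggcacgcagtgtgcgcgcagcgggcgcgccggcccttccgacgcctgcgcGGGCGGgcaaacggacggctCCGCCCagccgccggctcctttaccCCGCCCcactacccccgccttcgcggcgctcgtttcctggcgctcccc
TSPAN16: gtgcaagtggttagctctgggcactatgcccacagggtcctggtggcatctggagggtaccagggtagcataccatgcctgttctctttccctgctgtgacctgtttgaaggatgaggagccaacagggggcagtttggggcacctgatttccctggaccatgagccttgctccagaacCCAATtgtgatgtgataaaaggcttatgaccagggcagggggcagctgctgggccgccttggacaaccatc
SWSAP1: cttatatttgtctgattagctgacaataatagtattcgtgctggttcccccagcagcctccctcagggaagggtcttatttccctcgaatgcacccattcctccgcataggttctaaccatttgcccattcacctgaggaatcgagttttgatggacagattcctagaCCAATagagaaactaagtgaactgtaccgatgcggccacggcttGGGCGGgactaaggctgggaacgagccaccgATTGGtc
PAX6: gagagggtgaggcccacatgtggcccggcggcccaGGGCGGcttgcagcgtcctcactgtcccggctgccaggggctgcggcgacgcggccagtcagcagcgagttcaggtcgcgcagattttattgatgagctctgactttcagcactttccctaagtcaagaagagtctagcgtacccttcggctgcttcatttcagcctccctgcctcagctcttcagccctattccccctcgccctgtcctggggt
WT1: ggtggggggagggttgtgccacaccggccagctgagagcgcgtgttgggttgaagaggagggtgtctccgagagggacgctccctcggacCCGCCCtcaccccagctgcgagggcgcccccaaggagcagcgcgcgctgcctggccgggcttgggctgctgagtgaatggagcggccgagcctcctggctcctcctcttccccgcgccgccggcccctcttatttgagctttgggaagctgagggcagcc

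The C1GALT1C1 stretch held 4 GC boxes, 34 CpG dinucleotides and a GC content of 71.6%. Its partner CUL4B had no GC box, 1 CCAAT box, 4 CpG dinucleotides and a GC content of 43.6%. PAX6 and WT1 were both CpG-rich, with 15 and 19 CpG dinucleotides and 1 GC box each. TSPAN16 held 1 CpG dinucleotide, and SWSAP1 held 10, with 1 GC box and 2 CCAAT boxes. So a GC-rich promoter was paired with a GC-poor one in the naive-only example, and 2 GC-rich promoters were paired in the primed-only one.

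The naive list held 10132 of the pairs and the primed list 9294. Of all pairs, 4869 (34.4%) were naive-only, 5263 (37.2%) were shared and 4031 (28.5%) were primed-only. The naive list was thus larger, by a ratio of 1.09 (95% interval 1.06 to 1.12). The interactions of promoters with other fragments ran the other way, with 67673 naive and 73433 primed interactions up to 1 Mb and a ratio of 0.922 (0.912 to 0.931). Shared pairs made up 51.9% (51.0 to 52.9%) of naive and 56.6% (55.6 to 57.6%) of primed promoter pairs, against 49.3% and 45.4% of the interactions with other fragments. Each list merges 2 replicates, so the intervals cover counting error only and no test between the lists was possible. A pair missing from a list was below the score of 5 that CHiCAGO, the interaction caller, required, which does not show that the contact was absent.

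The median read number of a pair was 23 in the naive and 22 in the primed list, with at least 3 reads for every pair. The median CHiCAGO score was 7.01 in the naive and 7.06 in the primed list. Among shared pairs, 45.4% (44.03 to 46.7%) had the higher score in primed PSCs.

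Primed-only pairs reached farther than the others. Their median distance was 303 kb, against 200 kb for naive-only and 198 kb for shared pairs. Naive PSCs had more pairs than primed PSCs at every distance up to 250 kb, with ratios of 1.28 (1.18 to 1.398) up to 50 kb, 1.25 (1.15 to 1.36) from 50 to 100 kb and 1.27 (1.21 to 1.33) from 100 to 250 kb. The lists were level from 250 to 500 kb, with a ratio of 1.00 (0.951 to 1.05). Beyond 500 kb the naive list was the smaller, with 1031 pairs against 1521 and a ratio of 0.678 (0.626 to 0.734). Interactions of promoters with other fragments shifted with distance in the same direction, from 1.24 up to 50 kb to 0.513 beyond 500 kb, so the shift was not particular to promoter pairs.

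**Figure D1:**
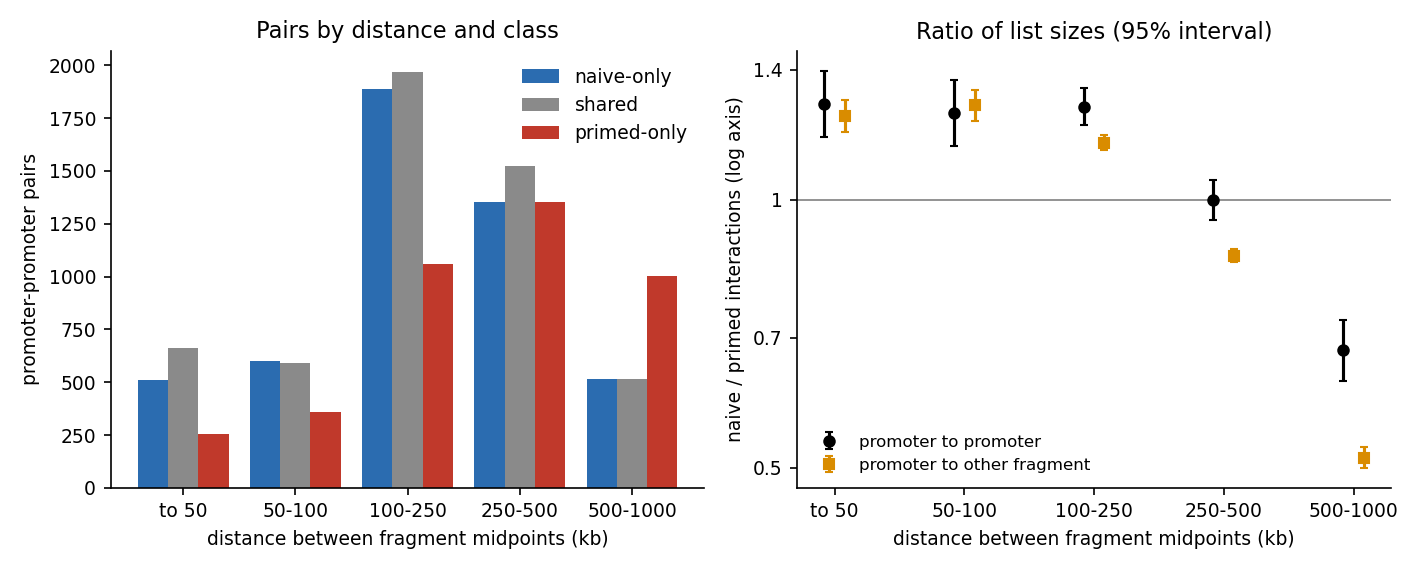
Left, number of naive-only (blue), shared (grey) and primed-only (red) promoter pairs (y axis) by distance between fragment midpoints in kb (x axis). Right, ratio of naive to primed interactions (log axis) with 95% intervals of the counts for promoter pairs (black) and for promoters with other fragments (orange). Primed-only pairs outnumbered naive-only pairs only beyond 500 kb, 1004 against 514.

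Most pairs passed over other captured promoters. Only 20.2% of naive-only, 23.3% of shared and 15.2% of primed-only pairs joined neighbouring promoter fragments of the lists. The median number of such fragments between the ends was 2, 2 and 3. Where both ends held a gene of known direction, the genes pointed the same way in 53.4% of naive-only, 53.2% of shared and 56.5% of primed-only pairs. A protein-coding promoter stood at both ends in 63.3%, 62.1% and 63.6% of these classes. Pairs between alternative promoters of 1 gene were few, with 26 naive-only, 46 shared and 15 primed-only pairs. By chromosome, the ratio of naive to primed pairs was lowest on chromosome 5 (0.796) and highest on chromosomes 16 (1.45) and X (1.41).

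H3K4me1 at the paired promoters was more often higher in naive than in primed PSCs. The level of a fragment was the mean log2 RPM (reads scaled to the depth of the library) over its 500 bp tiles, and limma compared the 2 naive with the 3 primed libraries over all 88413 listed fragments, calling an adjusted p under 0.05. Of the 11038 paired promoter fragments, 2122 (19.2%) were higher in naive PSCs, against 15.2% of all listed fragments, and 719 (6.51%) were higher in primed PSCs, against 9.81%. The medians over the paired promoters were -1.55 and -1.37 in the naive libraries and -1.88, -1.74 and -1.94 in the primed libraries. Every naive median thus lay above every primed median. The naive and primed libraries did not overlap at 2115 of the 2122 fragments and 707 of the 719.

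The share of naive calls among called fragments, 74.7%, depended on the scaling. It was 59.5% after quantile normalisation (13.4% of paired promoters higher in naive PSCs against 12.5% of all fragments, and 9.13% higher in primed PSCs against 11.2%). It was 63.6% with edgeR on the reads recovered from the tiles (18.3% against 13.2%, and 10.4% against 11.7%). With the highest tile in place of the mean, it was 60.7%, and 10.7% of paired promoters against 11.6% of all fragments were then higher in naive PSCs. Without naive replicate 2 these shares were 8.996% and 8.72%, and without naive replicate 1 only 231 paired promoters stayed higher in primed PSCs. Sequencing depth differed between libraries, at 21.8 M and 6.74 M reads in naive and 8.85 M, 7.89 M and 26.6 M reads in primed PSCs, and its part in the result was not tested.

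With the mean level of the tiles, the promoters differed by the class of their pairs. Of the 2546 promoters with naive-only pairs alone, 539 (21.2%, 19.6 to 22.8%) were higher in naive and 136 (5.34%, 4.53 to 6.28%) in primed PSCs. Of the 1882 promoters with primed-only pairs alone, 326 (17.3%, 15.7 to 19.1%) were higher in naive and 184 (9.78%, 8.52 to 11.2%) in primed PSCs. Promoters with a shared pair lay between, with 18.9% and 6.16%. The captured promoters without a pair had 15.7% and 10.2%, and the share higher in primed PSCs at promoters with primed-only pairs alone was close to theirs and to the background. The median GC content of the fragments was 48.1% for naive-only, 46.2% for primed-only and 45.4% for unpaired promoters, and its part in these differences was not tested. From the highest tile, 11.98% of promoters with naive-only and 10.89% with primed-only pairs alone were higher in naive PSCs. Both shares lay near the 11.6% of all fragments. The shares higher in primed PSCs were then 6.05% and 10.3%. The naive shares were 15.2% and 12.6% after quantile normalisation, and 20.3% and 17.2% with edgeR.

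**Figure D2:**
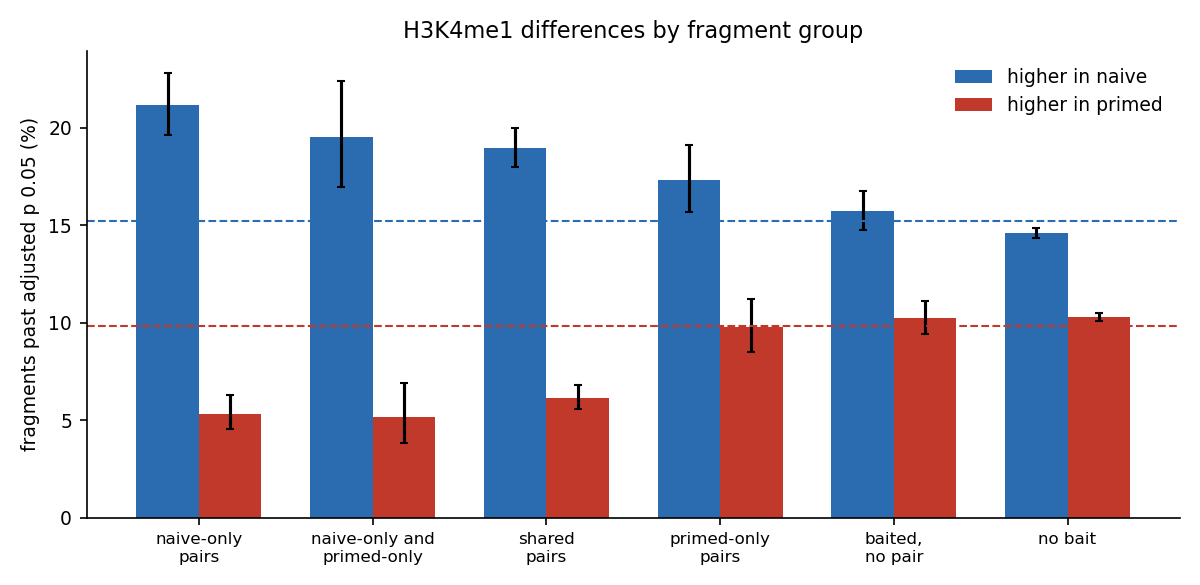
Share of fragments (y axis, percent) with H3K4me1 higher in naive (blue) or primed (red) PSCs by limma at an adjusted p under 0.05, for each group of fragments (x axis). Bars carry 95% Wilson intervals and dashed lines mark the shares over all listed fragments, 15.2% and 9.81%. The blue bar is highest for promoters with naive-only pairs alone, at 21.2%.

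The difference lay beside the starts rather than on them. Over the 1941 protein-coding starts in promoters with naive-only pairs alone, the mean level at the start was -0.84 and -0.82 in the naive libraries and -0.86, -0.64 and -1.27 in the primed libraries. At this point the cell types overlapped. At 2 kb downstream, the naive libraries stood at -1.08 and -0.86 and the primed libraries at -1.49, -1.47 and -1.61, so that they no longer overlapped. Over the 1398 starts in promoters with primed-only pairs alone, the levels at 2 kb were -1.16 and -0.97 in naive and -1.34, -1.52 and -1.59 in primed libraries. The gap between the nearest libraries of the cell types was narrower there, and narrower still at the 3235 starts of unpaired promoters, where naive levels of -1.12 and -0.97 faced primed levels of -1.20, -1.44 and -1.46.

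**Figure D3:**
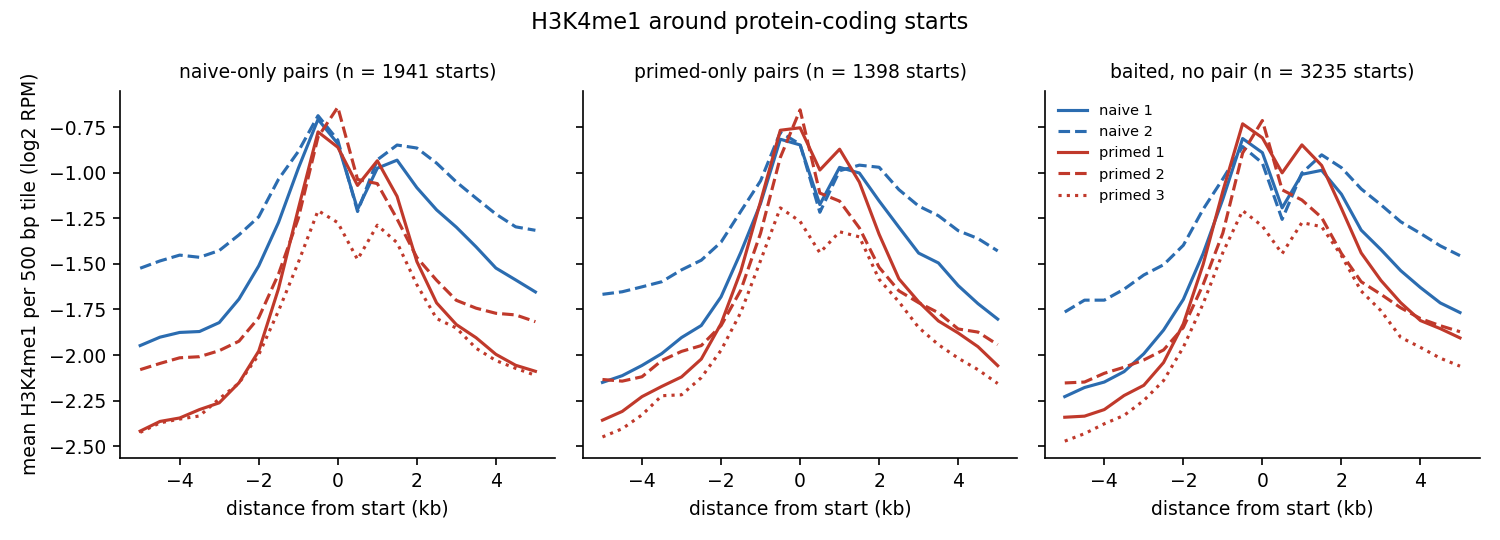
Mean H3K4me1 per 500 bp tile (y axis, log2 RPM) by distance from protein-coding starts in kb (x axis, negative is upstream), in 2 naive (blue) and 3 primed (red) libraries. Panels show promoters with naive-only pairs alone (1941 starts), with primed-only pairs alone (1398 starts) and captured promoters without a pair (3235 starts). With naive-only pairs the libraries of the cell types overlap from the start to 1 kb downstream and are apart at the other distances. With primed-only pairs they overlap at -5 kb and from -1 to 1 kb. At unpaired promoters they overlap from -5 to -3.5 kb and from -1 to 1.5 kb.

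Both ends of a pair carried higher H3K4me1 in naive PSCs in 322 naive-only (6.61%), 316 shared (6.004%) and 239 primed-only pairs (5.93%). Both ends were higher in primed PSCs in 28 (0.575%), 49 (0.931%) and 28 (0.695%). The ends went opposite ways in 0.801%, 1.10% and 1.22% of pairs, and neither end was called in 58.0%, 58.1% and 53.9%. As a description over pairs that share promoters and libraries, the primed minus naive differences of the ends correlated with r = 0.29 in naive-only, 0.28 in shared and 0.23 in primed-only pairs. Pairs with both ends higher in naive PSCs were found at overlapping rates among naive-only (5.95 to 7.35%) and primed-only pairs (5.24 to 6.70%). No such shares or correlations were computed for other fragments at like distance. Whether paired ends agreed more than those was therefore not tested.

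Many pairs joined members of 1 gene family lying in a cluster, and the families differed in class. The 35 pairs between HOX genes, the homeobox factors that pattern the body axis, were all primed-only. They lay within all of the HOXA, HOXB, HOXC and HOXD clusters, on chromosomes 7, 17, 12 and 2, at a median of 55.4 kb. The highest score was 12.70 for HOXB2 with HOXB9, 61 reads over 76.9 kb, followed by HOXB3 with HOXB13 (12.20, 46 reads, 172 kb) and HOXC10 with HOXC9 and HOXC8 (11.43, 276 reads, 12.6 kb). HOXA2 and HOXA13, near opposite ends of their cluster, were paired with a score of 7.41 over 90.5 kb. Raising the score to at least 10 left 5 primed and 0 naive pairs inside the clusters. The HOX promoters did have partners outside the family in both states, with 37 naive-only, 27 shared and 36 primed-only pairs between a HOX gene and another gene.

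H3K4me1 at the 35 HOX fragments with any promoter pair, inside or outside the family, did not lean to primed PSCs as the contacts inside the clusters did. It was higher in naive PSCs at 6 (17.1%, close to the 15.2% of all listed fragments) and in primed PSCs at 1 (2.86%, against 9.81%), and its median difference was 0.03 on the log2 scale, against -0.06 over all fragments. The HOXB3 fragment at chr17:48556037-48557417 stood at 1.08 and 0.82 in naive and at -1.04, -0.41 and -0.75 in primed libraries (difference -1.68, SE 0.37, limma adjusted p = 0.000315). It had 6 primed-only partners and yet the higher mark in naive PSCs. HOXD12, with 1 primed-only, 1 shared and 1 naive-only partner, was the fragment higher in primed PSCs, at -0.47 and -1.03 in naive and 0.40, 0.21 and 0.10 in primed libraries (difference 0.99, SE 0.37, limma adjusted p = 0.0410). This call was lost in several settings, with limma adjusted p = 0.356 without naive replicate 2, 0.579 from the highest tile, 0.106 without naive replicate 1, 0.0510 without primed replicate 1 and 0.0935 without primed replicate 3.

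Pairs between genes of other developmental transcription factors were also mainly primed-only, with 21 primed-only, 5 shared and 0 naive-only pairs. Genes were matched by symbol, so antisense RNA genes named after a factor are counted, and 1 of the primed-only pairs joined TBX2 to TBX2-AS1. The pairs joined neighbours on chromosome 20 (NKX2-2, NKX2-4 and PAX1 with one another, and PAX1 with FOXA2), on chromosome 14 (NKX2-1, NKX2-8, PAX9 and FOXA1), and on chromosome 12 (LHX5 and TBX3 with TBX5). PAX1, a factor of the sclerotome and thymus, and FOXA2, a factor of endoderm and floor plate, had a score of 34.11 from 50 reads across 879 kb. NKX2-1 with PAX9, factors of the foregut and pharynx, scored 22.38 from 80 reads, and PAX9 with FOXA1 scored 20.59 from 17 reads over 936 kb. OLIG2 with OLIG1, factors of the oligodendrocyte lineage, scored 10.36 from 81 reads over 44.1 kb. The shared pairs included IRX3 with IRX5, DLX1 with DLX2, and alternative promoters of FOXN3 and of FOXP2. Of these, IRX3 with IRX5 scored 6.97 in naive and 24.59 in primed PSCs across 644 kb. With promoter fragments outside this group, the developmental genes had 74 naive-only, 81 shared and 101 primed-only pairs.

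H3K4me1 leaned to primed PSCs over all paired fragments of the developmental genes, whether their partners lay inside or outside the group. Of these 133 fragments, 27 (20.3%) were higher in primed PSCs, against 9.81% of all listed fragments. The mark was higher in naive PSCs at 8 (6.02%), against 15.2%, and the median difference was 0.32. PAX1 stood at -2.80 and -2.48 in naive and at -0.34, -0.73 and -0.35 in primed libraries (difference 2.17, SE 0.36, limma adjusted p = 2.7e-06). FOXA2 stood at -1.28 and -0.84 in naive and 0.28, -0.09 and -0.09 in primed libraries (difference 1.09, SE 0.37, adjusted p = 0.0203). Both ends of the PAX1 and FOXA2 pair were thus higher in every primed library, although the FOXA2 call was lost without naive replicate 1 (limma adjusted p = 0.301), naive replicate 2 (0.0758) or primed replicate 3 (0.0544). Both ends were also called for LHX5 (difference 1.41, adjusted p = 0.00245) with TBX5 (1.89, adjusted p = 3.71e-05), factors of the forebrain and of the heart and forelimb, 932 kb apart, and LHX5 lost its call without naive replicate 1 (0.0866) or 2 (0.0538). The call was also lost from its highest tile (0.0676). OLIG2 stood at -1.37 and -1.67 in naive and 0.83, 0.72 and 0.45 in primed libraries (difference 2.18, SE 0.37, adjusted p = 3.74e-06). OLIG1, at the other end, had overlapping libraries and a difference of -0.02 (SE 0.36, adjusted p = 0.987).

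The clustered protocadherins, cell-surface proteins of neurons that share the long arm of chromosome 5, had 106 naive and 233 primed pairs inside the family. Of their 245 pairs, 12 were naive-only, 94 shared and 139 primed-only, and 82 of the 94 shared pairs scored higher in primed PSCs. PCDHB5, the beta-cluster fragment at chr5:141130690-141146770, had 28 shared partners, 1 naive-only and 2 primed-only. Its pair with the PCDHGA7 and PCDHGB4 fragment scored 18.73 from 15 reads in naive and 44.67 from 36 reads in primed PSCs. The PCDHA3 and PCDHA4 fragment of the alpha cluster had 18 primed-only partners, against 3 shared and 1 naive-only. All but 1 of the primed-only partners carried beta or gamma protocadherin genes. H3K4me1 at the 33 protocadherin fragments was higher in naive PSCs at 11 (33.3%, against 15.2% of all listed fragments) and higher in primed PSCs at 1 (3.03%, against 9.81%), with a median difference of -0.80.

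The replication-dependent histone genes showed the opposite order, with 49 naive-only, 105 shared and 18 primed-only pairs. These genes supply histones in S phase and lie mostly in 1 large cluster on chromosome 6. H4C9 with the fragment of H2BC13, H3C10 and H2BC14 scored 51.26 from 28 reads in naive and 29.56 from 18 reads in primed PSCs, across 672 kb. The H2BC12 and H2AC12 fragment had 24 shared partners, of which all but 1 carried histone genes. H3K4me1 was higher in naive PSCs at 14 of 46 histone fragments (30.4%, against 15.2% of all listed fragments) and higher in primed PSCs at 0 (against 9.81%), with a median difference of -0.64.

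**Figure D4:**
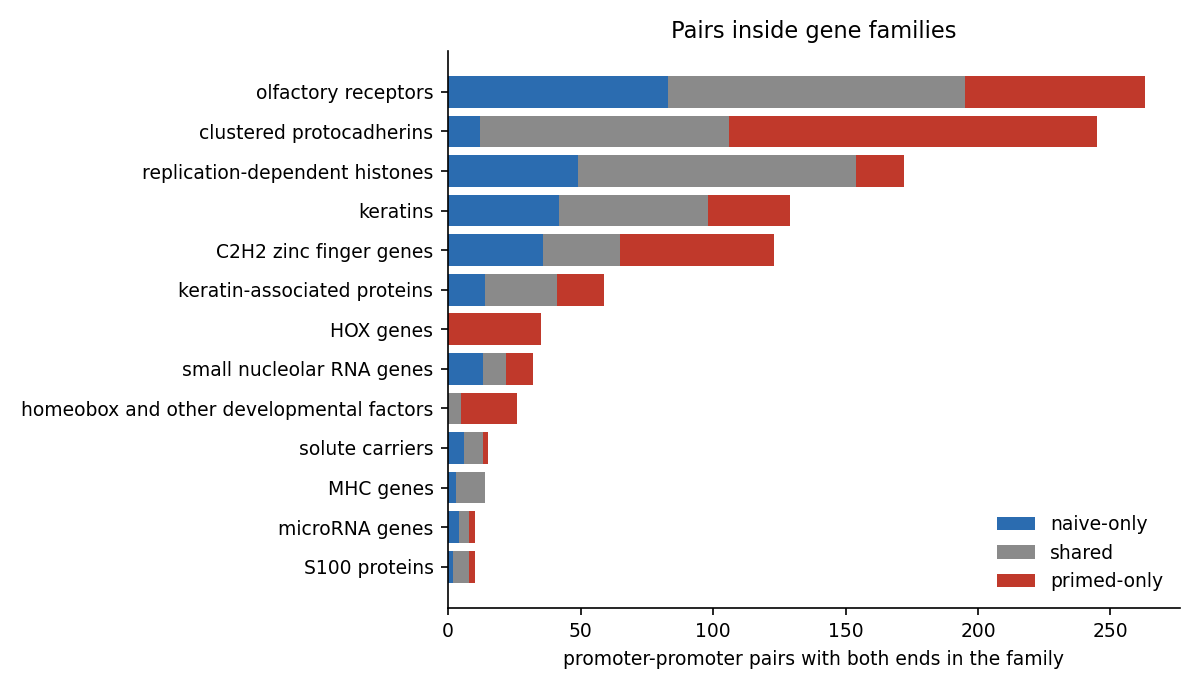
Number of promoter pairs with both ends in the same gene family (x axis), split into naive-only (blue), shared (grey) and primed-only (red), for families with at least 10 pairs (y axis). The HOX bar of 35 pairs is red throughout, and 139 of the 245 protocadherin pairs are red against 18 of the 172 histone pairs.

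Olfactory receptors had the most pairs inside a family, 83 naive-only, 112 shared and 68 primed-only, at 173 fragments of which 3 (1.73%) were higher for H3K4me1 in naive and 6 (3.47%) in primed PSCs, against 15.2% and 9.81% of all listed fragments. The olfactory fragment OR1J1 was close to the level of an empty tile in naive replicate 2 (-2.85 against -2.91). The same held in primed replicates 1 (-3.19 against -3.30) and 2 (-3.09 against -3.13). Differences are hard to call at such levels, and how many olfactory fragments lay there was not counted. Keratins had 42 naive-only, 56 shared and 31 primed-only pairs, keratin-associated proteins 14, 27 and 18, and C2H2 zinc finger genes 36, 29 and 58. The order of naive and primed counts for the zinc finger genes and keratin-associated proteins turned with a stricter score, so no direction is given for them. The genes of the major histocompatibility complex (MHC), which present antigens, had 3 naive-only, 11 shared and 0 primed-only pairs. Housekeeping families whose members are scattered over the genome hardly paired within themselves. Cytosolic ribosomal proteins, splicing factors and respiratory chain subunits had 0 such pairs, while proteasome subunits, mitochondrial ribosomal proteins and tRNA synthetases had 1 each. Their promoters were nevertheless in pairs with other genes, and H3K4me1 was higher in naive PSCs at 18 of 44 cytosolic ribosomal, 15 of 30 proteasome and 13 of 26 tRNA synthetase fragments, against 15.2% of all listed fragments and 19.2% of paired promoters.

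The pairs with the highest scores were of different kinds in the classes. Among primed-only pairs, PAX6 with WT1 had the highest score, 62.88 from 71 reads across 625 kb (chr11:31804686-31813333 with chr11:32431719-32435985). PRDM13 with SIM1, a regulator of spinal and retinal neurons and a factor of the hypothalamus, followed with 50.01 from 61 reads across 860 kb. The pair of PAX1 and FOXA2 came next. The fragment of OTP, a hypothalamic homeobox factor, scored 30.04 with a fragment holding no annotated promoter, and PTF1A, a factor of pancreas and cerebellum, scored 23.81 with COMMD3 across 881 kb.

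Not all ends of the strong primed-only pairs had a called difference in H3K4me1, and some were called higher in naive PSCs. These were the OTP partner (difference -0.99, SE 0.37, limma adjusted p = 0.0390) and ENSG00000236986, paired with PRRC2B (-1.36, SE 0.38, adjusted p = 0.00514). Neither was called from its highest tile (limma adjusted p = 0.242 and 0.0977) or with edgeR (edgeR adjusted p = 0.0962 and 0.0764). Among other settings, the OTP partner also lost its call without primed replicate 3 (limma adjusted p = 0.147) and after quantile normalisation (0.0583). Without naive replicate 2 the differences of the OTP partner and ENSG00000236986 were -0.99 and -1.07. OTP (-0.92, adjusted p = 0.0698) and the COMMD3 fragment (-0.89, adjusted p = 0.0696) leaned the same way without a call. PAX6 stood at 0.36 and -0.15 in naive and at 1.14, 0.41 and 0.97 in primed libraries (difference 0.73, SE 0.39, limma adjusted p = 0.177). WT1 stood at -0.31 and -0.88 in naive and at -0.08, -0.23 and 0.18 in primed libraries (difference 0.56, SE 0.37, adjusted p = 0.317). Every primed library lay above every naive library at both promoters, but neither difference passed the threshold, except PAX6 without primed replicate 2 (limma adjusted p = 0.0237) or after quantile normalisation (0.0332). PTF1A did pass, at -2.16 and -1.81 in naive and 0.06, -0.58 and -0.57 in primed libraries (difference 1.62, SE 0.36, adjusted p = 0.000381), and was at 0.0609 without naive replicate 1.

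Naive-only pairs with the highest scores joined genes of mixed function over shorter spans. SNORA79B, a small nucleolar RNA, with CCNB1IP1, a ubiquitin ligase of meiotic crossing over, scored 36.04 from 186 reads over 10.8 kb. H3K4me1 was higher in naive PSCs at both ends, with differences of -2.50 (SE 0.36, limma adjusted p = 1.49e-07) and -0.98 (SE 0.36, adjusted p = 0.0371). The call at CCNB1IP1 was lost without either naive replicate (limma adjusted p = 0.131 and 0.194), primed replicate 2 (0.0602) or primed replicate 3 (0.140), and that at SNORA79B was kept. ELF3, an epithelial ETS factor, with GPR37L1, an orphan receptor, scored 25.69 from 41 reads over 107 kb. GPR37L1 stood at 0.06 and 0.20 in naive and -2.26, -1.46 and -1.90 in primed libraries (difference -2.00, SE 0.36, adjusted p = 1.44e-05), and ELF3 missed the threshold (difference -0.93, SE 0.37, adjusted p = 0.0531). PPP1R11 with TRIM40 in the MHC region (27.64, 34 reads) and PAK4 with the GMFG and SAMD4B fragment (23.33, 13 reads) had no called end.

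Among shared pairs, the highest lower score belonged to HLA-DOA with the HLA-DPA1 fragment, MHC class II genes 72.2 kb apart, with 66.49 in naive and 108.19 in primed PSCs. HLA-DOA stood at -2.91 and -2.09 in naive and -1.61, -1.08 and -1.60 in primed libraries (difference 1.07, SE 0.37, limma adjusted p = 0.0235), and HLA-DPA1 had a difference of 1.21 (SE 0.37, adjusted p = 0.0106). Without naive replicate 1 neither was called, at limma adjusted p = 0.412 and 0.469, and HLA-DOA was not called without primed replicate 2 (0.0699). From the highest tile HLA-DPA1 had a difference of 0.56 (limma adjusted p = 0.450). LINC00620 with WNT7A, a WNT ligand, scored 66.35 and 36.63, and HOXD3 with LINC01117 and LINC01116 scored 43.28 and 55.43. ADAMTS8, a secreted protease, with LINC02551 had the highest single score, 116.67 from 228 reads in naive PSCs, but 35.18 from 231 reads in primed PSCs. CHiCAGO weighs reads against an expected background in each list, and the reads of this pair were nearly equal while its scores were not.

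The network of pairs was split into many small groups. In naive PSCs 9156 promoters formed 1747 connected groups, the largest of 136 promoters. In primed PSCs 8492 promoters formed 1702 groups, the largest of 56. About as many promoters had a single partner in each state, 49.4% and 51.7%, and 36.8% and 35.4% of pairs lay in a triangle of mutually paired promoters. A few promoters had many partners of 1 class. DDX39B, an RNA helicase of mRNA export in the MHC class III region, had 15 naive-only, 2 shared and 0 primed-only partners, among them TNF with LTA, BAG6, C4A, EHMT2, HSPA1A and HSPA1B. DNA2, a helicase and nuclease of replication on chromosome 10, had 0 naive-only, 9 shared and 11 primed-only partners, among them TET1 and SIRT1. BAZ2A and UBAP2L had 12 primed-only partners each, and KMT5C, a histone H4 lysine methyltransferase, had 11. CCDC121 with GPN1 had 8 naive-only and 0 primed-only partners, and ABCF3 had 15 shared partners.

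The largest H3K4me1 differences at paired promoters were -3.77 and 3.52 in the 2 directions. The fragment of SPTBN1 and SPTBN1-AS2, the gene of a spectrin of the membrane skeleton, stood at 1.38 and 1.05 in naive and -2.57, -2.17 and -2.92 in primed libraries (difference -3.77, SE 0.36, limma adjusted p = 4.76e-12). SRRM1, a splicing coactivator, stood at 1.16 and 0.67 in naive and -3.26, -2.77 and -2.43 in primed libraries (difference -3.73, SE 0.37, adjusted p = 6.43e-12). Both fragments had pairs in naive PSCs, 2 and 3 of them naive-only. In the other direction, the FLI1 fragment, of an ETS factor of blood and endothelium, stood at -1.51 and -2.09 in naive and 1.64, 0.81 and 1.30 in primed libraries (difference 3.05, SE 0.38, adjusted p = 3.64e-09). It had 3 partners, all primed-only. VSIG10L, with the largest difference towards primed PSCs (3.52, SE 0.38, adjusted p = 9.52e-11), had 1 partner, which was naive-only. GRIK3, a kainate receptor subunit, was likewise higher in primed PSCs (2.91, SE 0.37, adjusted p = 6.19e-09) with 1 naive-only partner.

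Pairs with large differences at both ends were seen in each class. THOC2, a subunit of the mRNA export complex, stood at -0.12 and -0.48 in naive and -2.74, -2.92 and -3.97 in primed libraries (difference -2.91, SE 0.38, limma adjusted p = 1.07e-08), and its naive-only partner RNU7-69P, a U7 RNA pseudogene, differed by -3.72 (SE 0.36, adjusted p = 6.74e-12). CUL4B stood at -0.18 and -0.43 in naive and -2.56, -2.24 and -3.51 in primed libraries (difference -2.47, SE 0.37, adjusted p = 4.31e-07). C1GALT1C1, its partner over 57.7 kb, stood at -0.37 and -0.37 in naive and -3.00, -2.95 and -3.77 in primed libraries (difference -2.87, SE 0.37, adjusted p = 8.65e-09). The GC-poor and the GC-rich promoter printed for this pair therefore both had the higher mark in naive PSCs, and the pair had a naive score of 11.43 from 12 reads. TSPAN16 (difference -2.19, SE 0.37) and SWSAP1 (-2.18, SE 0.36) were also both lower in primed PSCs, at limma adjusted p = 3.26e-06 and 2.8e-06, although TSPAN16 was not called from its highest tile (0.125). Their pair was shared, with scores of 6.65 and 8.90.

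Of the 5 primed-only pairs with the largest concordant differences, 1 was higher in primed PSCs and 4 were higher in naive PSCs. The former joined SIX6, an eye and pituitary homeobox factor, to a fragment with no annotated promoter, with a score of 15.29 from 146 reads. SIX6 stood at -1.72 and -1.55 in naive and 1.54, 0.57 and 0.86 in primed libraries (difference 2.62, SE 0.38, limma adjusted p = 1.34e-07). Among the latter, TET2, a dioxygenase that oxidises methylcytosine, stood at 0.64 and 0.13 in naive and -1.22, -2.14 and -1.87 in primed libraries (difference -2.13, SE 0.37, adjusted p = 6.15e-06). Its partner ARHGEF38, 406 kb away, stood at 1.16 and 0.87 in naive and -2.62, -2.68 and -2.66 in primed libraries (difference -3.66, SE 0.36, adjusted p = 6.36e-12). The contact was thus listed in primed PSCs, with a score of 7.63 from 25 reads, while the mark was higher at both ends in naive PSCs.

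**Figure D5:**
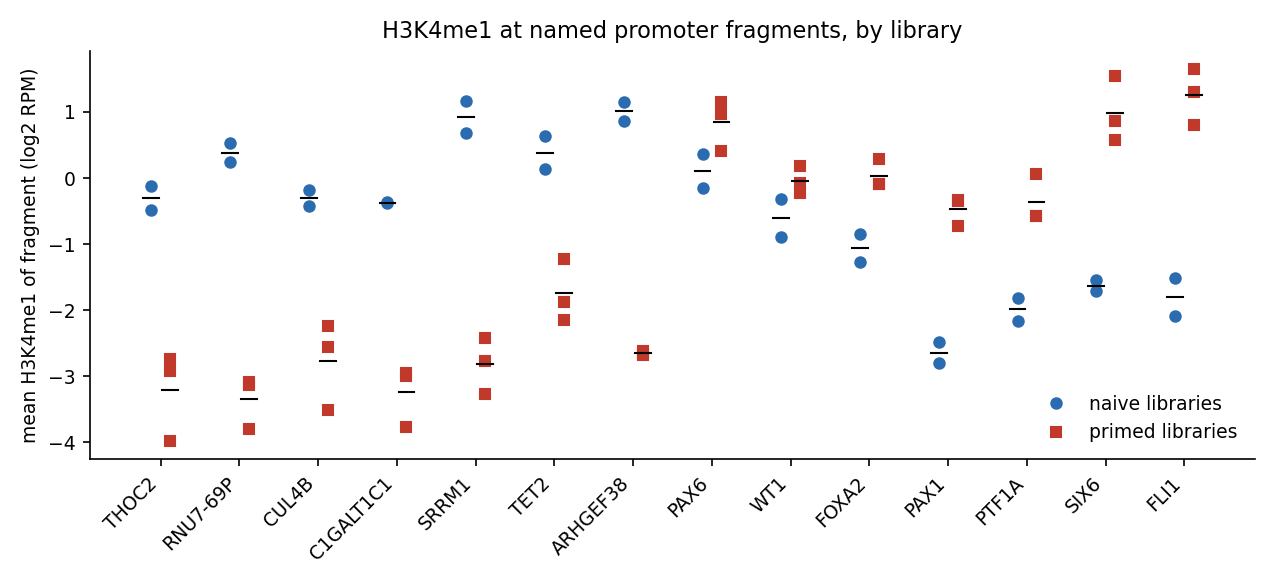
Mean H3K4me1 of 14 named promoter fragments (y axis, log2 RPM) in each of the 2 naive (blue circles) and 3 primed (red squares) libraries, with black bars at the group means. Naive and primed libraries are apart at all 14, but the differences at PAX6 and WT1, 0.73 and 0.56, did not pass the threshold.

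Marker genes of the states were rarely paired with one another. Only captured fragments with a listed interaction were counted here, so a marker without one may still have been a capture target. Of 17 naive markers 8 were on a captured fragment of the lists and all 8 were paired, in 4 naive-only, 2 shared and 5 primed-only pairs. They lay on 7 fragments, of which 5 (those of DPPA5 with KHDC3L, DPPA3, SUSD2, ALPG and FGF4) were higher for H3K4me1 in naive PSCs and 0 in primed PSCs, against 15.2% and 9.81% of all listed fragments. DPPA5 and KHDC3L, on 1 fragment and expressed in germ cells and early embryos, were paired with OOEP, an oocyte gene, in naive PSCs alone (score 9.10, 185 reads, 19.1 kb). That fragment stood at 0.45 and 0.35 in naive and -2.65, -1.91 and -2.57 in primed libraries (difference -2.78, SE 0.36, limma adjusted p = 1.35e-08), and OOEP differed by -2.21 (SE 0.36, adjusted p = 1.77e-06). DPPA3 had a shared pair with GDF3, with scores of 5.60 and 5.46, and was not called from its highest tile (difference -0.49, limma adjusted p = 0.381). FGF4 had a primed-only partner, ANO1, although its mark was higher in naive PSCs (difference -1.27, SE 0.36, adjusted p = 0.00565). Calls were lost for FGF4 without naive replicate 1 (limma adjusted p = 0.114), naive replicate 2 (0.0594) or primed replicate 3 (0.0560) and from its highest tile (difference -0.18, adjusted p = 0.777), and for SUSD2 when any library but primed replicate 2 was left out (0.0944 to 0.252).

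Of 15 primed markers 11 were on a captured fragment of the lists and 7 were paired, in 3 naive-only, 1 shared and 4 primed-only pairs. The fragment of ZIC2 and ZIC5, zinc finger factors of the neural plate, was paired with CLYBL-AS2 (17.27, 34 reads) and CLYBL (9.32, 17 reads) in primed PSCs alone, and its mark did not pass the threshold (difference 0.54, SE 0.36, adjusted p = 0.323). FGF2, the growth factor of primed cultures, had a shared pair and a mark higher in primed PSCs, at -1.13 and -1.42 in naive and 0.55, -0.30 and 0.33 in primed libraries (difference 1.47, SE 0.37, limma adjusted p = 0.00160). The FGF2 difference was 0.03 from the highest tile (limma adjusted p = 0.971), and the call was also lost without naive replicate 2 (0.0871). TCF4 was also higher in primed PSCs (difference 3.08, adjusted p = 4.56e-09) but was unpaired.

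Of 11 genes of general pluripotency 7 were on a captured fragment of the lists and 5 were paired, in 7 naive-only, 4 shared and 2 primed-only pairs. A pair of alternative promoters of LIN28B, an inhibitor of let-7 microRNA maturation, was listed in naive PSCs alone (5.39, 84 reads, 19.8 kb), with H3K4me1 differences of -1.20 (SE 0.36, limma adjusted p = 0.00843) and -1.42 (SE 0.41, adjusted p = 0.00616). Without naive replicate 2 neither was called, at limma adjusted p = 0.105 and 0.106, and without naive replicate 1 the latter was not (0.210). DPPA4, a chromatin factor of early embryos, had 3 naive-only, 2 shared and 1 primed-only partner. POU5F1, the gene of OCT4, was paired with ABCF1 in naive PSCs over 612 kb, on 3 reads only.

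Hi-C, made without capture, moved in the direction of the classes. For pairs whose 100 kb bins lay 100 to 300 kb apart, contacts were compared as the log2 ratio of primed to naive, relative to the median of all bins at the same distance. The median was -0.17 (95% interval -0.19 to -0.15) over 1534 bin pairs of naive-only pairs, -0.01 (-0.03 to 0.01) over 1207 of shared and 0.09 (0.07 to 0.12) over 867 of primed-only pairs. The spread was wide, with 29.3% of naive-only and 60.4% of primed-only bin pairs above 0. Bins with promoter to other-fragment interactions alone gave -0.14, -0.06 and 0.15, so bins without a promoter pair shifted likewise. Promoter capture starts from Hi-C library DNA, and whether these were the same libraries is not given in the sources used here. With 1 Hi-C library per state, the values have no replicate check. A bin of 100 kb also holds many fragments besides the pair.

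Captured promoters, paired or not, were rich in CpG. RefSeq sequences of 300 bases, 250 before to 50 after the start, were matched to 6751 of the 11038 paired fragments. They held a median of 22 CpG dinucleotides, against 24 at captured promoters without a pair and 13 over all 28994 RefSeq promoters. A GC box was present in 58.9% (57.9 to 59.9%) of paired, 59.1% (57.5 to 60.7%) of unpaired captured and 44.05% of all promoters, on either strand. The ETS core CCGGAAG stood in 14.8% (14.1 to 15.5%), 12.3% (11.3 to 13.5%) and 10.4%, and CCAAT in 35.7% (34.7 to 36.7%), 33.4% (31.8 to 34.9%) and 35.5%. TATAAA stood in 9.01% (8.43 to 9.62%), 7.995% (7.15 to 8.94%) and 12.04%. Between classes, GC boxes stood in 62.7% (60.5 to 64.8%) of promoters with naive-only pairs alone and 57.8% (55.3 to 60.3%) with primed-only pairs alone, and TATAAA in 7.004% (5.97 to 8.21%) and 9.90% (8.49 to 11.5%). AAGATGGC, the core of the YY1 motif, was found in 4.90% (4.04 to 5.94%) and 3.34% (2.55 to 4.38%), and a core of the CTCF motif in 0.429% of paired, 0.284% of unpaired captured and 0.286% of all promoters. These are matches of letters, not bound sites.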

How the data were processed

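The authors mapped PCHi-C reads to GRCh38 with HiCUP, combined 2 replicates per state in CHiCAGO and deposited interactions with a score of at least 5. Read numbers in these lists were rounded by the authors, and CHiCAGO scores are weighted log p-values. The Hi-C files hold deposited counts of di-tags per pair of 100 kb bins (31310843 naive and 52056334 primed contacts), with no normalisation. For H3K4me1 the authors gave log2 RPM per 500 bp tile, with an empty tile set to 0.9 reads. The submitters' processing notes name Trim Galore 0.5.0 and Bowtie2 2.3.2. Log2 RPM is not a count, so limma was the test, and the fold of weakly marked fragments is understated.

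The fourth column of the lists held a strand or a dot, and matched the strand of an annotated gene in 53.36% of paired fragments. It was used only as the bait mark, and genes were named from GENCODE 44 starts plus 1000 bp upstream, with several genes per fragment allowed. Of the 11038 paired fragments 10387 had a name, 8358 with a protein-coding gene, and 651 stayed unnamed.

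Pairs listed from both baits were merged. The mean log2 RPM of the tiles of each of 88413 fragments was fitted by limma 3.58.1 (lmFit, eBayes with trend, R 4.3.3), without a filter on low values, with Benjamini-Hochberg adjustment and a threshold of 0.05. The labels do not say whether replicates were separate cultures, so p-values measure the spread between these libraries. Intervals are 95% Wilson or count-ratio intervals, or order statistics for Hi-C medians, and cover counting error only. Hi-C bin pairs needed at least 5 contacts in both states, and 99.7%, 98.9% and 96.4% of primed bin pairs at 100, 200 and 300 kb were also in the naive file. The script was tested on simulated data.

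Named were the 8 pairs per class with the highest score (1 per chromosome), the 5 promoters with most partners per class, marker genes, families (by gene symbol, antisense genes included) with at least 10 internal pairs, the largest H3K4me1 differences and the largest concordant pairs. HOX and developmental-factor pairs, unpaired marker genes and single family fragments named besides were chosen after their values were seen. The members and lists were chosen with earlier results of these data known. Alternatives covered score, reads, distance, matching of ends, scaling, the tile summary, filters, single libraries and a replicate block. edgeR 4.0.16 on recovered reads (100% of tile values were whole) and leaving out pairs inside 7 families were added after seeing the data. NANOG, SOX2 and input ChIP-seq were not analysed here. Some items of the lists are not reported here.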

Additional observations from a re-analysis of the deposited data

How the results depend on the processing

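At a score of at least 7 there were 2502 naive-only, 2587 shared and 2150 primed-only pairs, and at a score of at least 10 there were 1174, 1069 and 1032. Protein-coding promoters at both ends left 3083, 3270 and 2565 pairs. The ratio of naive to primed pairs stayed above 1 in all of these settings and was 1.20 when both lists were cut to equal size and 1.17 up to 500 kb. At least 10 reads, ends matched within 10 kb, and leaving out pairs inside 7 families kept each class within 1.5 times its count. The median distance of shared pairs was 189 kb at a score of at least 7. The order of naive and primed pairs turned for C2H2 zinc finger genes (naive minus primed 1 at a score of at least 10), keratin-associated proteins (1 at a score of at least 10) and small nucleolar RNA genes (-2 at a score of at least 7 and -2 at 10).

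Paired promoters higher for H3K4me1 in naive PSCs numbered 1184 with the highest tile and 330 with a filter on low values (1094 fragments passed), and those higher in primed PSCs numbered 148 with that filter, 461 without the trend and 1152 with edgeR. Leaving out 1 library gave 993 to 2428 higher in naive and 231 to 766 higher in primed PSCs. Naive calls fell by over 1.5 times without naive replicate 1 (1168), naive replicate 2 (993) or primed replicate 3 (1365), and primed calls without naive replicate 1 (231). Scalings moved the median of all fragments from -0.06 to 0.01 (quantile) and 0.02 (median centring). The replicate numbers do not pair the libraries by design (deviations correlated at r = 0.081 and 0.205 for numbers 1 and 2), and with a replicate block the counts were 1566 and 683. Of 1264 values for 94 named fragments under alternatives, 1263 kept their direction, 139 lost and 10 gained the threshold, and SIM1 was reversed at -0.015 without naive replicate 2 (1.13 without naive replicate 1). With bins 100 kb apart only, the Hi-C medians were -0.15, -0.047 and 0.026. Shallow libraries limit weakly marked fragments, since 15.3 to 52.3% of tiles were empty. The causes were not tested.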

Other observations

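Groups of pairs that belong to no comparison above were small. Chemokine genes, the attractants of leukocytes, had 2 naive-only, 3 shared and 3 primed-only pairs inside the family. The S100 genes of calcium-binding proteins had 2, 6 and 2, led by S100A12 with S100A7A at scores of 12.40 and 14.68. Small nucleolar RNA genes had 13, 9 and 10 pairs, with SNORD116 fragments of chromosome 15 paired in both states (11.91 and 21.61). MicroRNA genes had 4, 4 and 2. FGF ligand genes had 1 naive-only and 1 shared pair, and WNT ligand genes and cadherins outside the clusters had 0.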
